A study of Homo sapiens with 36 samples.

Results

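Occupancy of the zinc finger transcription factor GATA2 was examined at 9 genes of the red cell membrane skeleton, ANK1, SPTB, EPB41, EPB42, SLC4A1, ADD2, DMTN, TMOD1 and TMCC2. Every peak of the 28 deposited peak lists was taken whose summit lay in the hg38 body of one of these genes or within 10 kb on either side, and overlapping peaks were merged into sites. This gave 452 peaks in 40 sites, out of 17277 sites in the whole series. Sites are numbered within each gene by rising coordinate. Of the 40 sites, 33 had their summit inside the gene and 7 outside it, and 2 of the 7 lay within 1 kb of a gene end. No site lay in, or within 1 kb of, another protein-coding gene. The gene table used has no exons, so exon and intron positions were not analysed here.

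The membrane skeleton is a protein mesh under the red cell membrane that lets the cell deform and recover its shape. Spectrin tetramers form the mesh, ankyrin and band 3 tie it to the membrane from the middle of spectrin, and short actin filaments with protein 4.1, adducin, dematin and tropomodulin tie it at the spectrin ends. Inherited defects of these proteins cause spherocytic and elliptocytic anaemias, and GATA factors are known regulators of erythroid genes through the DNA word GATA and its neighbours. TMCC2, a transmembrane coiled-coil protein, is not a classical part of the mesh and is counted here because the gene list includes it.

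The libraries came from HUDEP-2 cells, an immortalized human line of erythroid progenitors, by CUT&Tag, an assay in which a transposase bound to the antibody cuts and tags DNA near the protein. GATA2-low cells, labelled GATA2+/-, carried lentiviral HA-GATA2(T354M), lentiviral HA-GATA2 or an empty lentiviral vector, and WT cells carried the empty vector. T354M is an amino acid change in GATA2, HA is a short epitope tag on the introduced protein, and libraries of cells with HA-GATA2(T354M) are called T354M libraries. Per the labels, infected cells were sorted for GFP, and all cells grew in medium with erythropoietin, stem cell factor, doxycycline and dexamethasone. How the GATA2-low cells were made, and whether they are 1 clone, is not given in the sources used here. Anti-GATA2 libraries existed for all 4 kinds of cells and anti-HA libraries for the 3 kinds of GATA2-low cells, with 4 libraries in each of the 7 groups. Anti-GATA2 does not separate introduced from endogenous GATA2, whereas anti-HA is directed at the introduced protein alone. RNA was not measured, so the labelled cell type could not be checked against expressed markers.

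The lists differed in length, with 595 ± 166 peaks in T354M anti-HA libraries and 10395 ± 2274 in HA-GATA2 anti-GATA2 libraries as the extremes of the tagged groups (SD, n = 4 each). The empty-vector anti-HA libraries, which hold no HA tag, had 1 to 6 peaks, and none fell at a member site. Read totals are unknown. The lowest background recovered from the lists, which tracks depth, was 0.42 to 0.587 fragments in T354M, 0.427 to 0.434 in HA-GATA2, 0.153 to 0.213 in GATA2-low empty-vector and 0.222 to 0.302 in WT anti-GATA2 libraries. It was 0.356 to 0.411 in T354M and 0.375 to 0.438 in HA-GATA2 anti-HA libraries. A site without a peak is one that did not pass the caller at that depth, not one shown to be empty. The labels name no separate cultures, so p-values measure library-to-library spread alone, possibly technical. Replicate 1 of the GATA2-low empty-vector anti-GATA2 group is titled GATA2-low but has a wild-type genotype label, and the title was followed.

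The 3 promoters of the 9 genes that held the summit of a site found in all 16 anti-GATA2 libraries are shown, so that the summits can be read against their sequence. Each is the 250 bases before a RefSeq start site (GRCh38.p14), 5′ to 3′ on the gene's strand, which is minus for SPTB and EPB42 and plus for TMCC2. Capitals mark GATA words on either strand, which do not overlap one another here. The first word searched was AGATAA. Another, with a different last base, was AGATAG. With a different first base the search took in TGATAA, and with both bases different also TGATAG.
SPTB chr14:64879908-64880157: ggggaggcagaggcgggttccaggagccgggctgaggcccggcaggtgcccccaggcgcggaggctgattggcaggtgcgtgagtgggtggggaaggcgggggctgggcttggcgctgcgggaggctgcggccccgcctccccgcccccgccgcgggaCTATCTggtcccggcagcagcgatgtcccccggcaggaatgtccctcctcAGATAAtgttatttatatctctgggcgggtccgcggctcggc
EPB42 chr15:43221019-43221268: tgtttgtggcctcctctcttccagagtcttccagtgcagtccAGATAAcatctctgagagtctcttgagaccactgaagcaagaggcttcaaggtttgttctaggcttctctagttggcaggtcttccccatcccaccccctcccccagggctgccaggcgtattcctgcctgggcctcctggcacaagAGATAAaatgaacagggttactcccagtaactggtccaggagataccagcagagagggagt
TMCC2 chr1:205255952-205256201: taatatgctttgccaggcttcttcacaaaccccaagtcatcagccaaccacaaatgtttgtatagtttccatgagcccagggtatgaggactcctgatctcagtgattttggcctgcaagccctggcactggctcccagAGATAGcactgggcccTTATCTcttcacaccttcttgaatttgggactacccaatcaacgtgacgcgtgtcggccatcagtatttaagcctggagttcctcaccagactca
Each window held 2 words. Of 34961 RefSeq promoter windows, 22.3% held at least 1 word and 4.96% at least 2. Of the 43 windows that held the summit of a site found in all 16 anti-GATA2 libraries, which include these 3, 69.8% held at least 1 word and 41.9% at least 2.

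The summits lay near the words at 2 of the 3 promoters. At SPTB the words began at -92 and -42 relative to the start, and the median summit of 20 libraries was at -89, with 15 summits within 20 bp of a word. At TMCC2 they began at -111 and -95, and the median summit of 24 libraries was at -110, with 21 within 20 bp. At EPB42 they began at -208 and -61, and the summits spread more widely, with a median of -145, a range of -232 to -39 and 11 of 24 libraries within 20 bp of a word. A word is a description of the letters in a window and does not show that the factor binds it. RefSeq windows matched SPTB, EPB41, EPB42, ADD2, TMOD1 and TMCC2. ANK1, SLC4A1 and DMTN had no entry. One further listed start, that of EPB41 with its window at 28914319 to 28914568 on chromosome 1, held the summit of a site (EPB41 site 3) and no word.

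The sites fell into a constant core and a variable remainder. A peak was found in all 16 anti-GATA2 libraries at 10 of the 40 sites (25%), against 1200 of all 17277 sites (6.95%). These 10 were ANK1 site 5, SPTB sites 5 and 8, EPB41 site 2, EPB42 site 2, SLC4A1 sites 3 and 4, DMTN site 1, TMOD1 site 2 and TMCC2 site 2, so 8 of the 9 genes held one. The exception was ADD2. At the other extreme, 9 of the 40 sites (22.5%) came from a single library, close to the 20.9% of all sites. The member sites were wider than sites in general, with a median of 615 bp against 402 bp. The genes were chosen with earlier results of these data known, so their share of constant sites is a description.

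**Figure D1:**
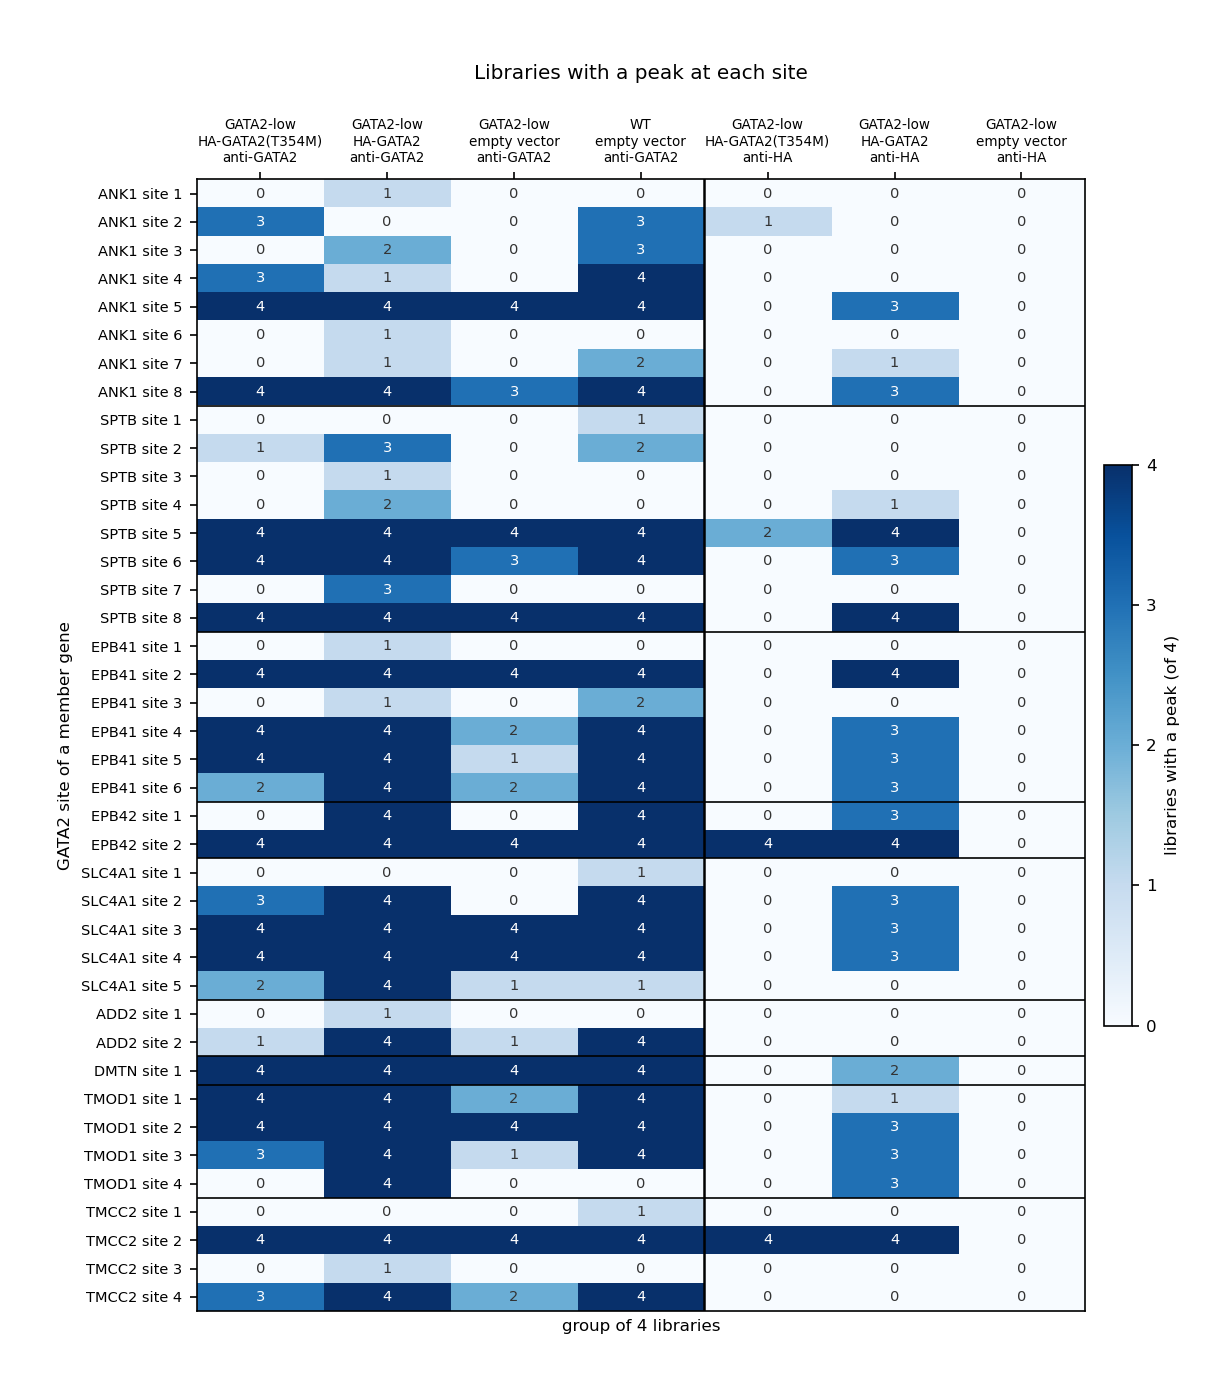
Number of libraries, of 4 in each group, with a peak at each of the 40 sites (rows, grouped by gene) in the 7 groups (columns, anti-GATA2 left of the vertical line and anti-HA right of it). The 10 rows with a 4 in all 4 anti-GATA2 columns are the constant sites, EPB42 site 2 and TMCC2 site 2 alone also have a 4 in both tagged anti-HA columns, and the empty-vector anti-HA column is 0 throughout.

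Ankyrin-1, the product of ANK1, ties spectrin to band 3, and its gene (chromosome 8, 41653225 to 41896741) held 8 sites. The constant one, site 5 (41797318 to 41799070), stood at the 81.9th, 53.8th, 83.9th and 81.9th percentile by -log10 q in the T354M anti-GATA2 lists, at 79.4, 81.2, 89.2 and 87.6 in the HA-GATA2 lists, at 60.6, 61.5, 42.6 and 90.9 in the GATA2-low empty-vector lists and at 80.9, 90.9, 88 and 86 in the WT lists, where 100 is the strongest peak of a list. The GATA2-low empty-vector lists spread most, with the lowest value of the 16 and, level with 1 WT list, the highest. With anti-HA it had a peak in 0 of 4 T354M and 3 of 4 HA-GATA2 libraries. ANK1 site 4 (41792173 to 41793080) had an anti-GATA2 peak in 3 of 4 T354M, 1 of 4 HA-GATA2, 0 of 4 GATA2-low empty-vector and 4 of 4 WT libraries. It was a weak site throughout, at 0.4 to 34.6 in T354M and 17.5 to 51.7 in WT lists. ANK1 site 2 (41770624 to 41771048), singled out after its values were seen, had a peak in 3 T354M, 0 HA-GATA2, 0 GATA2-low empty-vector and 3 WT libraries, and its only anti-HA peak came from 1 T354M library. These were the only member sites found in more T354M than HA-GATA2 anti-GATA2 libraries.

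Band 3, the chloride and bicarbonate exchanger of the red cell encoded by SLC4A1 (chromosome 17, 44248390 to 44268135), had 5 sites. Site 4 (44266400 to 44267402), 1417 bp inside the gene's higher-coordinate end, was constant, with percentiles of 89, 73.8, 90.6 and 90.4 in T354M, 87.1, 92.2, 93.6 and 93.3 in HA-GATA2, 94.6, 75.4, 94.6 and 91 in GATA2-low empty-vector and 93.5, 92.7, 94 and 92.5 in WT anti-GATA2 lists. The 4 T354M values lay below the 4 WT values, and the HA-GATA2 and GATA2-low empty-vector values overlapped both. Such a gap between T354M and WT was not particular to this site. Of the other constant sites, SPTB site 5, EPB42 site 2, SLC4A1 site 3, DMTN site 1 and TMCC2 site 2 had it. ANK1 site 5, SPTB site 8, EPB41 site 2 and TMOD1 site 2 did not. These are places in lists of unlike length, and the share of all sites with such a separation was not computed. SLC4A1 site 3 (44245357 to 44246522), 2235 bp outside the lower-coordinate end, was constant as well. SLC4A1 site 2 (44242896 to 44243614), 5155 bp outside that end, had an anti-GATA2 peak in 3 of 4 T354M, 4 of 4 HA-GATA2, 0 of 4 GATA2-low empty-vector and 4 of 4 WT libraries. Its HA-GATA2 peaks stood at 56.3, 63, 75.6 and 77.1 and its WT peaks at 23.7, 18.9, 39.9 and 46.1, again without a share over all sites. SLC4A1 site 5 (44268002 to 44268627), whose summit lay 133 bp outside the higher-coordinate end, had a peak in 2 T354M, 4 HA-GATA2, 1 GATA2-low empty-vector and 1 WT library with anti-GATA2 and in no anti-HA library.

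Protein 4.2, encoded by EPB42 (chromosome 15, 43197227 to 43225737), steadies the link between band 3 and ankyrin, and its promoter site had the highest mean percentile of the 40 sites in each of the 4 anti-GATA2 groups. That promoter belongs to a listed start inside the gene, at 43221018, and the summit lay 4574 bp inside the higher-coordinate end. EPB42 site 2 (43220366 to 43221932) ranked 128, 129, 41 and 43 in T354M lists of 4643, 2779, 5587 and 6311 peaks, and 24, 12, 20 and 20 in HA-GATA2 lists of 7064, 11012, 12171 and 11333. It ranked 20, 27, 34 and 14 in GATA2-low empty-vector lists of 1823, 1914, 2336 and 3648 peaks, and 10, 35, 18 and 16 in WT lists of 6641, 6555, 9121 and 8183. Every anti-GATA2 list thus had it within the top 5% of peaks. Beside it, EPB42 site 1 (43219137 to 43219646) was among the weakest sites, at percentiles of 4.2, 1.4, 7.6 and 11.7 in HA-GATA2 and 0.9, 10.4, 22.9 and 32.1 in WT lists, with no peak in any T354M or GATA2-low empty-vector library.

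Beta-spectrin, the product of SPTB (chromosome 14, 64746283 to 64879907), is one of the chains of the spectrin mesh, and 2 of its 8 sites were constant. SPTB site 8 (64879378 to 64880791), the promoter site shown above, lay 89 bp before the start. Its percentiles were 60.7, 12.1, 67.1 and 47.8 in T354M, 63.2, 78.1, 83.4 and 78.2 in HA-GATA2, 46.7, 23, 64.2 and 51 in GATA2-low empty-vector and 63.6, 65, 71.4 and 73.2 in WT anti-GATA2 lists. SPTB site 5 (64841233 to 64842637), 37954 bp inside that end of the gene, was stronger, at 83.4, 41, 84.8 and 85.1 in T354M, 85.8, 88.3, 92.4 and 89.8 in HA-GATA2, 33.5, 67.4, 72 and 83.8 in GATA2-low empty-vector and 90.6, 93.3, 93.6 and 93.1 in WT lists. At both sites T354M replicate 2, the shortest T354M list, was the lowest of its group. SPTB site 6 (64844880 to 64845587) missed the constant group by 1 GATA2-low empty-vector library.

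Protein 4.1, encoded by EPB41 (chromosome 1, 28887100 to 29120041), joins spectrin and actin to glycophorin C. Its strongest site, EPB41 site 2 (28883689 to 28885303), lay 2993 bp before the first listed start and had percentiles of 88, 82.5, 92.2 and 96.9 in T354M, 91.2, 96.2, 97.6 and 96.5 in HA-GATA2, 75.6, 92.3, 92.8 and 92.1 in GATA2-low empty-vector and 97.7, 88.1, 88.8 and 93.5 in WT anti-GATA2 lists. EPB41 sites 4, 5 and 6, all inside the gene, were found in 4, 4 and 2 T354M libraries, in every HA-GATA2 library, in 2, 1 and 2 GATA2-low empty-vector libraries and in every WT library.

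The remaining actin-binding genes differed in how much of their occupancy was constant. Beta-adducin, which caps actin filaments and recruits spectrin to them, is encoded by ADD2 (chromosome 2, 70656784 to 70768200), and its main site (70717480 to 70717992) had a peak in 1 of 4 T354M, 4 of 4 HA-GATA2, 1 of 4 GATA2-low empty-vector and 4 of 4 WT libraries. ADD2 was the one member with no anti-HA peak in any library. Dematin, an actin-bundling protein, is encoded by DMTN (chromosome 8, 22048931 to 22082525), which held a single and constant site (22059682 to 22060679) at percentiles of 80.4, 52, 81.7 and 76.6 in T354M, 78, 88.9, 83.6 and 91.1 in HA-GATA2, 68.5, 52.7, 78.6 and 69.3 in GATA2-low empty-vector and 84.6, 87.4, 89.1 and 87.7 in WT lists. Tropomodulin-1, which caps the slow-growing end of actin filaments, is encoded by TMOD1 (chromosome 9, 97501180 to 97601743), where site 2 (97563902 to 97564779) was constant. TMOD1 site 4 (97570266 to 97570732) was found in 4 of 4 HA-GATA2 libraries, at percentiles of 43, 50.8, 61.3 and 62, and in no T354M, GATA2-low empty-vector or WT anti-GATA2 library. It was the only member site with 4 of 4 HA-GATA2 and 0 of 4 WT libraries, a split that 1333 of all sites (7.72%) had.

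TMCC2 (chromosome 1, 205227946 to 205273343) held 4 sites, and its promoter site 2 (205255711 to 205256466) was constant. The promoter meant is that of a listed start inside the gene, at 205256202, whereas the first listed start is at 205227946. The windows of the other listed TMCC2 starts held no summit of a member site. Site 2 had a peak in every anti-GATA2 library. Its percentiles were 93.3, 80.3, 94.9 and 91.2 in T354M, 92.9, 94.8, 95.1 and 94.8 in HA-GATA2, 89.7, 89.1, 91.2 and 93.3 in GATA2-low empty-vector and 96.6, 97.9, 97.4 and 97.1 in WT anti-GATA2 lists. The WT values were the highest of the 16 at this site, in lists of unlike length, and the share of all sites where this was so was not computed. Among the 1298 sites with a peak in every GATA2-low empty-vector and WT library, its percentile was 83.8 ± 1.8 and 84.1 ± 3.4. The groups overlapped there (SD, n = 4 each, exact permutation p = 0.914).

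**Figure D2:**
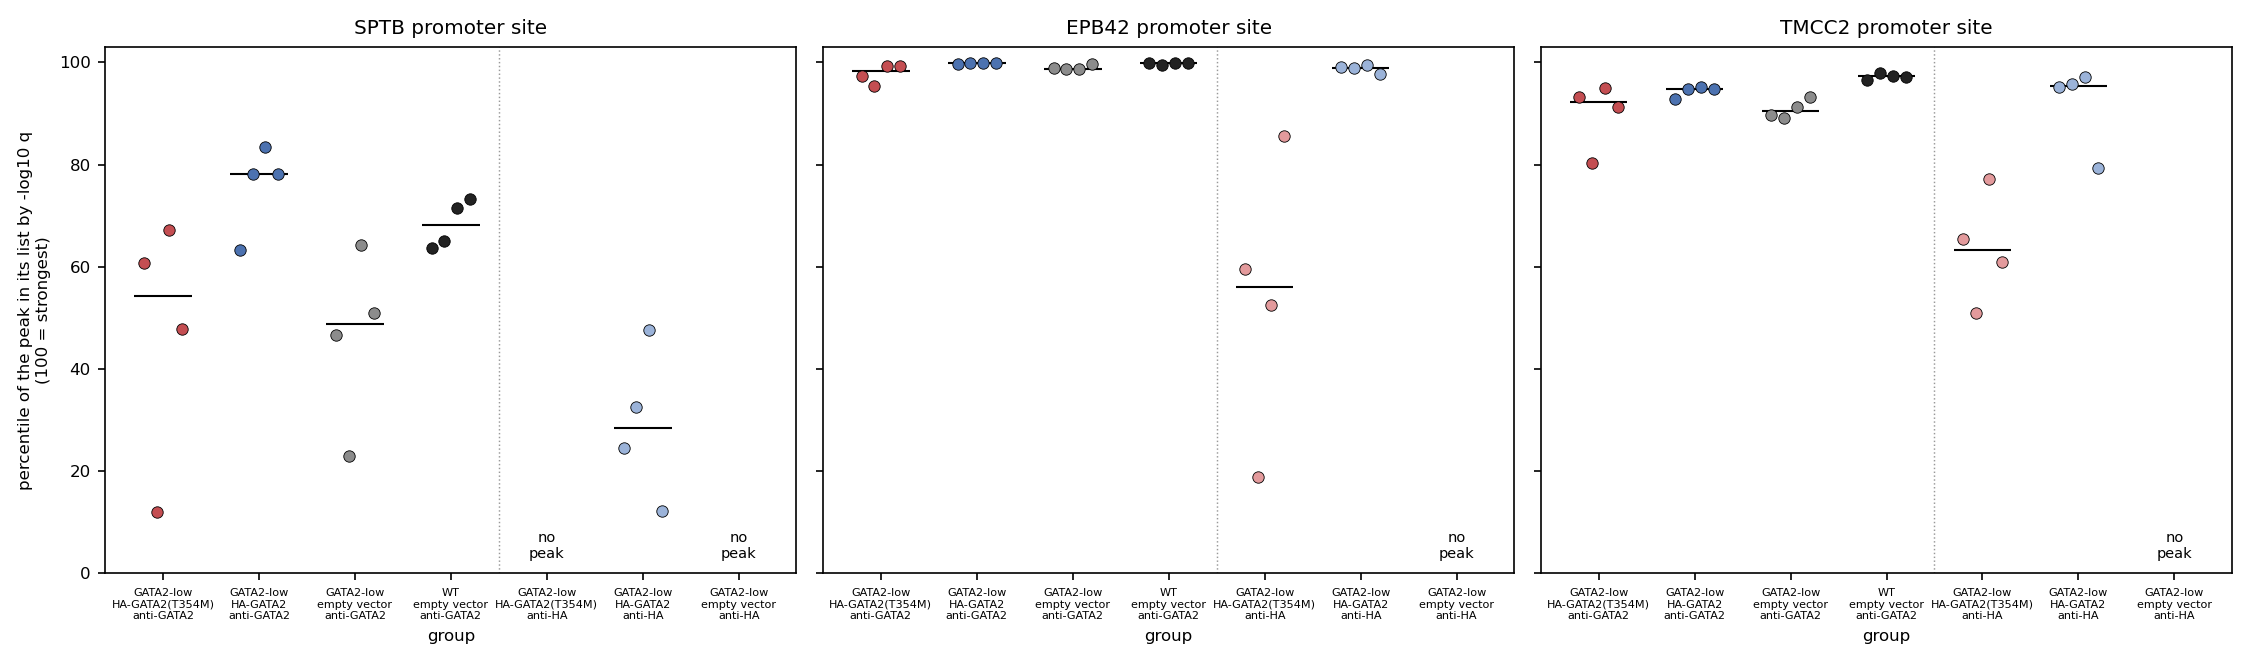
Percentile of the peak in its own list by -log10 q (100 is the strongest) at the promoter sites of SPTB (site 8), EPB42 (site 2) and TMCC2 (site 2), one point per library with a horizontal line at the median, for the 4 anti-GATA2 groups left and the 3 anti-HA groups right of the dotted line. EPB42 lies at 95.4 or above in every anti-GATA2 list and at 18.9 to 85.5 in the T354M anti-HA lists, and the SPTB site has no T354M anti-HA peak.

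GATA2-low empty-vector cells had fewer occupied member sites than WT cells. Of sites found in 4 of 4 WT libraries, those missing from more GATA2-low empty-vector libraries had a lower median WT percentile. The ranges overlapped in part, at 50.5 to 83.2 with 2 libraries and 68.3 to 99.7 with 4. The GATA2-low empty-vector libraries held 13, 11, 15 and 19 of the 40 sites, with a mean of 14.5 ± 3.42, against 23, 23, 29 and 29 in WT libraries, with a mean of 26 ± 3.46 (SD, n = 4 each). The groups did not overlap. Member sites made up 0.621 ± 0.0844% of the sites of a GATA2-low empty-vector library and 0.346 ± 0.017% of those of a WT library. All 20 member sites whose number of libraries differed had fewer GATA2-low empty-vector than WT libraries, and the other 11 with any peak were equal. Over all sites with a peak in either group, 86.1% had fewer GATA2-low empty-vector libraries and 1.23% had more. The median difference was -1 library over the member sites and -2 over all 11156 sites.

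A complete split, 0 of 4 GATA2-low empty-vector against 4 of 4 WT libraries, was found at ANK1 site 4, EPB42 site 1 and SLC4A1 site 2. That is 3 of the 31 member sites with a peak (9.68%), below the 13.7% of all sites with a peak in either group that split in this direction. Each had an exact two-sided Fisher p = 0.0286, the smallest that 4 against 4 allows. Adjusted by Benjamini-Hochberg over the 1805 sites that could reach it, 84.4% of which split this way, the Fisher exact p was 0.0338 at all 3, and adjusted over all 11156 sites it was 0.209, so the call rests on that choice. With 1 library left out these 3 splits stay complete, but other sites can also reach the threshold, which changes the adjustment. No member site was then called without GATA2-low empty-vector replicate 1, 2 or 3 or without WT replicate 3. There were 5 calls without GATA2-low empty-vector replicate 4, and 4 without WT replicate 1 or 2. With peaks of a -log10 q of at least 15 none of the 3 sites was called, and EPB41 site 5, TMCC2 site 4 and ANK1 site 8 were called lower in their place. With lists cut to equal length, each group averaged 12 member sites and none was called. With fragments thinned to a common background, the means were 14.2 in GATA2-low empty-vector and 22.2 in WT libraries and none was called.

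**Figure D3:**
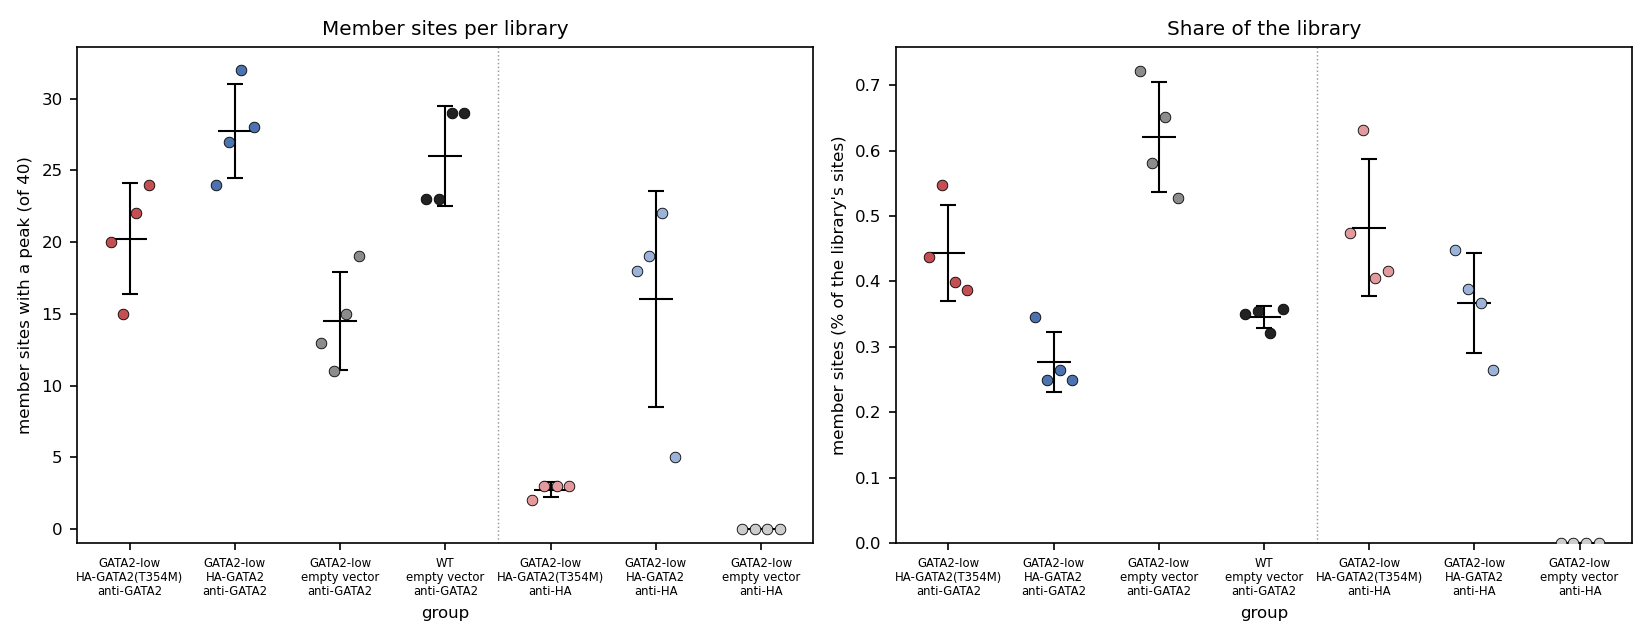
Member sites with a peak in each library (left, of 40) and as a percent of all sites of that library (right), one point per library, with the mean as a horizontal line and the SD as whiskers, for the 4 anti-GATA2 and the 3 anti-HA groups. GATA2-low empty-vector libraries hold 11 to 19 sites against 23 to 29 in WT, but a larger percent of their shorter lists, and HA-GATA2 anti-HA replicate 4 lies at 5 sites against 18 to 22 in the other 3.

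Of the 22 member sites with a peak in 4 of 4 WT libraries, 10 kept a peak in 4 of 4 GATA2-low empty-vector libraries (45.5%, against 27% of the 4806 such sites in all). The median WT percentile was 91.4 for these 10, 70.6 for the 2 with 3 libraries, 68 for the 4 with 2, 53.6 for the 3 with 1 and 32.1 for the 3 with none. The same medians over all 4806 sites were 89.9, 76.2, 67.6, 55.4 and 43.4. The medians thus came in the same order as over all sites, and the GATA2-low empty-vector libraries had the lowest background of the anti-GATA2 groups. The part of depth in these losses beyond the thinned values above was not tested.

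**Figure D4:**
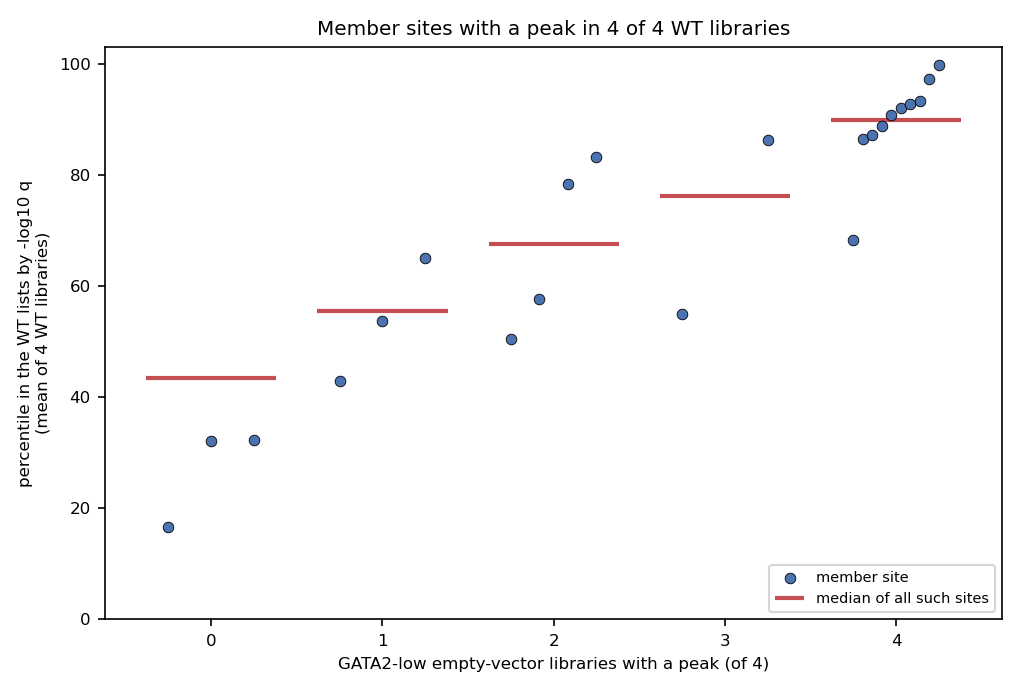
WT percentile by -log10 q (mean of the 4 WT libraries, vertical) of the 22 member sites with a peak in 4 of 4 WT libraries, by the number of GATA2-low empty-vector libraries with a peak (horizontal, 0 to 4), with a red line at the median of all such sites of the series. The 3 sites with 0 libraries lie at 16.6 to 32.2 and the 10 sites with 4 libraries at 68.3 to 99.7.

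HA-GATA2 in GATA2-low cells gave more occupied member sites than the empty vector, in a comparison that uses the same empty-vector libraries as the one with WT cells. HA-GATA2 anti-GATA2 libraries held 24, 27, 32 and 28 member sites, with a mean of 27.8 ± 3.3, against 13, 11, 15 and 19 in empty-vector libraries, with a mean of 14.5 ± 3.42 (SD, n = 4 each). A complete split was found at EPB42 site 1, SLC4A1 site 2 and TMOD1 site 4, 3 of 36 member sites (8.33%), against 23.8% of the 14107 sites with a peak in either group. Their Fisher exact p was 0.0311 adjusted over the 3651 sites that could reach the threshold, 91.8% of which split this way, and 0.12 adjusted over all. Of the 12 member sites with 4 of 4 WT and fewer than 4 GATA2-low empty-vector libraries, 11 were found in all 4 HA-GATA2 libraries. The exception was ANK1 site 4, with 1. The 12 were picked for their few empty-vector libraries, and the share over all sites picked in this way was not computed. SPTB site 7 (64875319 to 64875850), with 3 HA-GATA2 libraries and none in WT or empty-vector cells, was likewise absent from the T354M lists.

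The HA-GATA2 result turned with lists of equal length, but not with fragments thinned to a common background. Thinned, the means were 25.2 member sites in HA-GATA2 and 14.2 in empty-vector libraries, and 2 sites were called higher. With equal lists the means were 10.2 member sites in HA-GATA2 and 12 in empty-vector libraries, no higher site was called, and SPTB site 8 was called lower in HA-GATA2. With a -log10 q of at least 15, 6 sites were called higher: EPB42 site 1 was no longer called, and EPB41 sites 5 and 6, TMCC2 site 4 and SLC4A1 site 5 were added. No member site was called without empty-vector replicate 1, 2 or 3, and 6 were called without replicate 4. The complete splits stayed complete in each omission, so the lost calls came from the adjustment alone.

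T354M in GATA2-low cells was set against the same empty-vector libraries. T354M anti-GATA2 libraries held 20, 15, 22 and 24 member sites, with a mean of 20.2 ± 3.86, against 14.5 ± 3.42 in the empty-vector libraries (SD, n = 4 each), and the groups overlapped. Of 24 member sites, 12 had more T354M libraries and none fewer, against 69.7% of all 7613 sites with more and 8.3% with fewer. None of the member sites split completely, against 5.87% of all. Fisher's exact test called no site of the series here, although 450 had an unadjusted p of 0.0286. With thinned fragments the means were 15.8 in T354M and 14.5 in empty-vector libraries, and with equal lists 11.2 and 12.

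T354M cells had fewer occupied member sites than HA-GATA2 cells with anti-GATA2. The means were 20.2 ± 3.86 and 27.8 ± 3.3 (SD, n = 4 each), with HA-GATA2 replicate 1 no higher than T354M replicate 4, at 24 sites each. Of 37 member sites 20 had fewer T354M libraries, 2 had more and 15 had a peak in all 8. Over all 14531 sites 74% had fewer, 5.64% had more and 17.2% had a peak in all 8. EPB42 site 1 and TMOD1 site 4 split completely, at 0 of 4 against 4 of 4. That is 5.41% of the member sites, below the 10.2% of all 14531 sites, and 73% of the 2033 sites that could reach the threshold. Their Fisher exact p was 0.039 adjusted over those 2033 sites and 0.279 over all. Without any 1 T354M library, or without HA-GATA2 replicate 2, 3 or 4, no member site was called, and without HA-GATA2 replicate 1 there were 3. Both splits stayed complete in each omission, so the lost calls came from the adjustment alone. With a -log10 q of at least 15, EPB42 site 1 was no longer called and EPB41 site 6 was called lower. With equal lists the means were 14.2 in T354M and 13.2 in HA-GATA2 libraries and TMOD1 site 1 was called higher in T354M. Of the 12 WT sites missing from at least 1 empty-vector library, 5 had a peak in 4 of 4 T354M libraries, namely ANK1 site 8, SPTB site 6, EPB41 sites 4 and 5 and TMOD1 site 1. The share over all such sites was again not computed.

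At sites with a peak in all 8 libraries of a comparison, no member site passed the exact permutation test of its percentile among those sites. The exact p cannot fall below 0.0286, and too few of all shared sites reached it for any adjusted p to pass. The test could therefore call no site here, however far its ranks lay apart. The lowest adjusted exact p was 0.186 for GATA2-low empty-vector against WT, 0.0822 for HA-GATA2 and 0.115 for T354M against the empty vector, 0.0907 for T354M against HA-GATA2 with anti-GATA2 and 0.123 with anti-HA. Ranks that did not overlap are therefore given as values. In GATA2-low empty-vector against WT libraries this was so for SPTB site 8, at 23.3 ± 15.7 against 6.4 ± 1.3, 1 of 10 member sites against 15.3% of all 1298 shared sites. In HA-GATA2 against empty-vector libraries it was so for SLC4A1 site 4, at 52.7 ± 2.5 against 80.5 ± 13.3, and TMCC2 site 2, at 64.8 ± 2.3 against 83.7 ± 1.8, 2 of 10 against 34.8% of all. In T354M against empty-vector libraries, EPB42 site 2, SLC4A1 site 4 and TMCC2 site 2 did not overlap, at 93.1 ± 4 against 98.1 ± 0.7, 57.6 ± 5.2 against 79.1 ± 14.2 and 68.3 ± 9.4 against 82.5 ± 1.9, 3 of 10 against 24.9% of all.

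In T354M against HA-GATA2 anti-GATA2 libraries, 4 of 15 member sites did not overlap, against 31.5% of all 2501 shared sites. EPB42 site 2 stood at 96.6 ± 2 against 99.3 ± 0.2 and was lower in T354M. SLC4A1 site 4 at 76.4 ± 3.9 against 67.7 ± 2.8, TMOD1 site 1 at 22.3 ± 4.9 against 13.4 ± 3.6 and TMOD1 site 2 at 83.5 ± 4.2 against 70.9 ± 7 stood higher (SD, n = 4 each). A percentile here is a place among the same 2501 sites in each library, so a site can rank higher without more fragments. At TMOD1 site 2 the median of the recovered fragments at the summit was 93 in T354M and 127 in HA-GATA2 libraries.

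**Figure D5:**
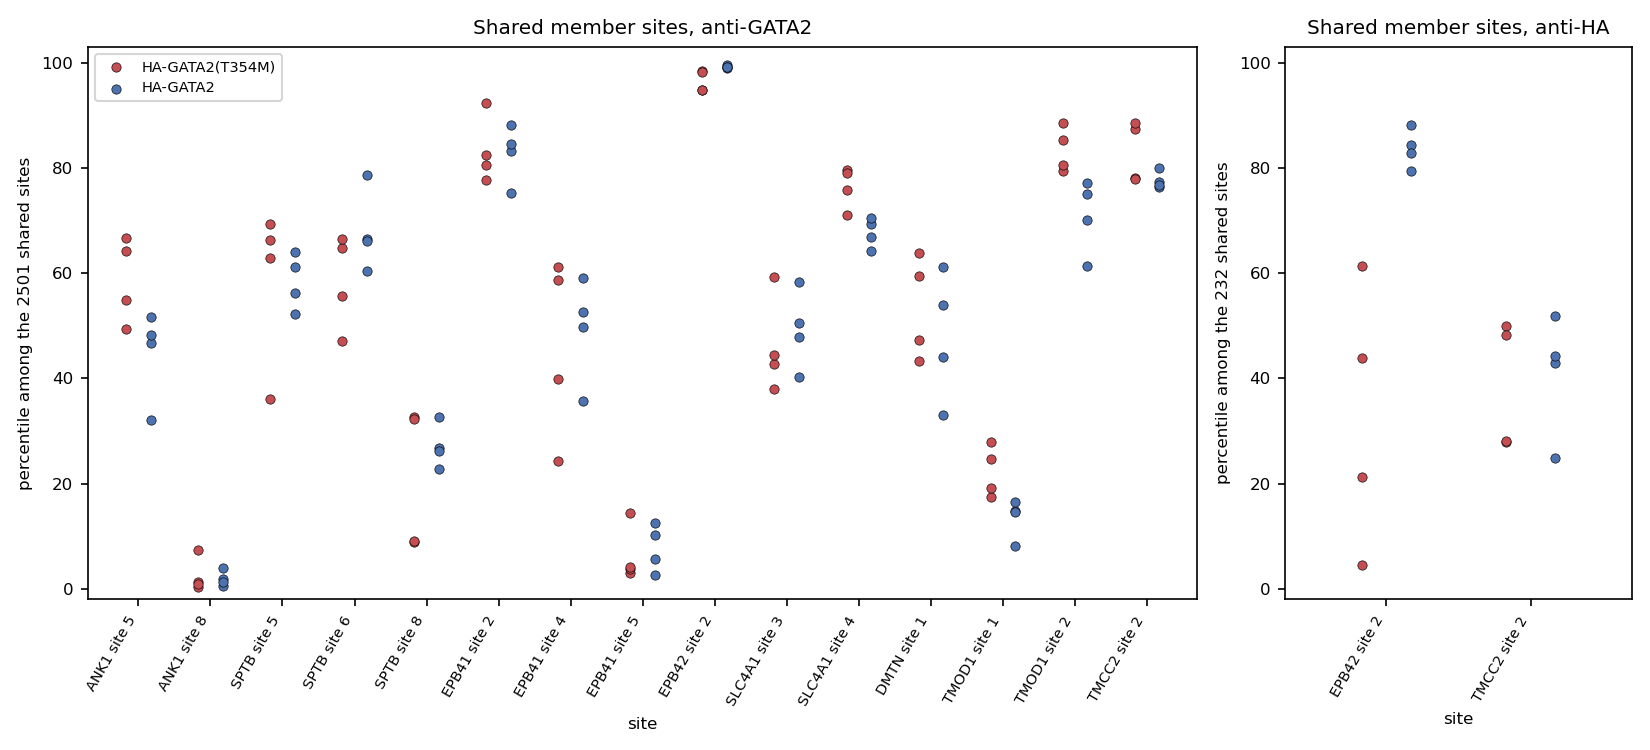
Percentile by -log10 q among the sites with a peak in all 8 libraries, for the 15 member sites shared by T354M (red, left of each pair) and HA-GATA2 (blue, right) anti-GATA2 libraries, and for the 2 shared with anti-HA in the right panel, one point per library. EPB42 site 2 with anti-HA shows the widest gap, 4.5 to 61.4 in T354M against 79.5 to 88.1 in HA-GATA2.

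With anti-HA, which reports the introduced protein, T354M was found at 4 of the 40 member sites (10%) and HA-GATA2 at 22 (55%), against 6.23% and 40% of all sites. T354M libraries held 2, 3, 3 and 3 member sites, with a mean of 2.75 ± 0.5, against 18, 19, 22 and 5 in HA-GATA2 libraries, with a mean of 16 ± 7.53 (SD, n = 4 each), and the groups did not overlap. Empty-vector libraries held 0. EPB42 site 2 and TMCC2 site 2 had a T354M peak in 4 of 4 libraries, SPTB site 5 in 2 and ANK1 site 2 in 1. HA-GATA2 had a peak in 4 of 4 libraries at these 2 promoters and at SPTB sites 5 and 8 and EPB41 site 2.

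The complete splits were SPTB site 8 and EPB41 site 2, lower in T354M than in HA-GATA2, 2 of 23 member sites (8.7%) against 13.6% of all 6944. Their Fisher exact p was 0.0321 adjusted over the 1059 sites that could reach the threshold, 89% of which split this way, and 0.211 over all. Against the empty vector, the 5 HA-GATA2 sites above were 22.7% of 22 member sites, beside 25.3% of all sites and 99.9% of those that could reach the threshold, with a Fisher exact p of 0.0286 adjusted over the latter and 0.113 over all. The 2 T354M promoter sites were 2 of 4, beside 22.3% of all sites and 100% of those that could reach the threshold, with adjusted Fisher exact p = 0.0286 and 0.128. HA-GATA2 replicate 4, the shortest list of its group at 1912 peaks, decided these counts. Without it 15 member sites were called lower in T354M than in HA-GATA2 and 18 higher in HA-GATA2 than in the empty vector. Without any 1 T354M library none was called against HA-GATA2, and without any 1 empty-vector library none was called for HA-GATA2. The splits stayed complete in these omissions, so the lost calls came from the adjustment alone. Both T354M calls against the empty vector held. With equal lists, T354M and HA-GATA2 libraries both averaged 2.5 member sites.

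At the EPB42 promoter both tagged proteins had a peak in every library, but at places in the list that did not overlap. The peak ranked at the 59.5th, 18.9th, 52.6th and 85.5th percentile of the T354M anti-HA lists, against 99, 98.9, 99.5 and 97.7 of the HA-GATA2 anti-HA lists. The recovered fragments at the summit were 34, 36, 33 and 41 in T354M and 129, 141, 160 and 85 in HA-GATA2 libraries, of similar lowest background. Among the 232 sites shared by all 8 libraries it stood at 32.8 ± 25 in T354M against 83.7 ± 3.6 in HA-GATA2 (SD, n = 4 each, exact permutation p = 0.0286, adjusted p = 0.123), 1 of 2 shared member sites without overlap, against 23.3% of all. The TMCC2 promoter had fragments of 43, 35, 44 and 36 in T354M and 95, 109, 122 and 60 in HA-GATA2 anti-HA libraries. Its place among the shared sites overlapped, at 38.5 ± 12.3 against 40.9 ± 11.5 (adjusted exact permutation p = 0.969).

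The 2 antibodies gave unlike pictures of the T354M cells. Of the 15 member sites with a T354M anti-GATA2 peak in 4 of 4 libraries, 12 (80%) had no T354M anti-HA peak in any library and 2 (13.3%) had one in 3 or more. Over all 2564 such sites the shares were 65.2% and 15%. Of the 23 member sites with an HA-GATA2 anti-GATA2 peak in 4 of 4 libraries, 18 (78.3%) had an HA-GATA2 anti-HA peak in 3 or more, against 48.3% of all 6592 such sites. The 3 with no anti-HA peak were SLC4A1 site 5, ADD2 site 2 and TMCC2 site 4. None of the 12 WT sites missing from at least 1 empty-vector library had a T354M anti-HA peak, while 8 had an HA-GATA2 anti-HA peak in at least 3 libraries. For these counts too, no share over all such sites was computed.

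Other genes of the red cell membrane are given beside the 9. A gene was counted when a summit lay in it or within 10 kb. Of the 9 members, 8 had a peak in 4 of 4 T354M libraries, 9 in HA-GATA2, 8 in GATA2-low empty-vector and 9 in WT libraries with anti-GATA2. Of 20 other skeleton and anchor genes the counts were 11, 16, 8 and 12, and of 17 relatives of the members used mainly in other tissues they were 5, 6, 4 and 6. Of all 19970 protein-coding genes the shares were 8.75%, 19.3%, 5.01% and 17.6%. A longer gene has more room for a summit, and the lists were not matched for gene length. TPM3, a tropomyosin that lies along actin, had a peak in 0 of 4 GATA2-low empty-vector against 4 of 4 WT libraries, and MPP1, a partner of protein 4.1 and glycophorin C, in 1 against 4. ADD1, the alpha-adducin partner of ADD2, and the mechanosensitive channel gene PIEZO1 had 2 against 4. ADD3, the gamma-adducin gene, had 1 against 3. Among the relatives, TMCC3 had 0 against 4, EPB41L4A 1 against 4, and ANK3 and SLC4A2 0 against 2. None of the 9 members split completely at the level of the gene, whereas 15.8% of the 6953 genes with a peak in either group did, and ADD2 came closest at 1 against 4.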

How the data were processed

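Per the labels, GATA2 and HA occupancy was measured by CUT&Tag in 28 libraries with a peak list. The 8 IgG libraries described had no list used here, and 2 of them carry an anti-HA label. The build is hg38 and the tools are MACS2 2.2.7.1, Bowtie2 2.2.5, cutadapt 3.3, FastQC and deepTools 3.5.3, per the submitters' processing notes, with settings not stated there. Each library has its own deposited list of peaks with 10 columns: a score, a fold enrichment (a linear ratio), p and q as -log10 values, and the summit offset, all the authors' own values.

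Peaks on chromosomes 1 to 22 and X (120509 of 120964) were merged by an overlap of at least 1 bp. A library has a site where any of its peaks overlaps it. Percentiles rank the deposited -log10 q within a list. Sites were compared genome-wide between groups by two-sided Fisher's exact tests on libraries with and without a peak, with Benjamini-Hochberg adjustment over those sites where 4 of the 8 libraries had a peak, which alone can reach 0.05, and called below 0.05. Percentiles among sites shared by all 8 libraries were compared by exact permutation (70 splits) with adjustment over all shared sites. Fragments and background were solved for from each peak's deposited -log10 p and fold, within 0.03%, and a list's lowest background divided by the caller's scaling stands for depth.

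The members and gene lists were chosen with earlier results of these data known. Named are all members, the most widely found site of each, sites splitting 4 of 4 against 0 of 4, sites with anti-HA peaks in 3 or more T354M libraries, sites at gene ends, and, from each other gene list, the 4 that differed most between GATA2-low and WT empty-vector libraries, with ties kept even past 4 and 1 gene not reported here, other sites being named to account for counts. Gene positions and sequences came from RefSeq (GRCh38.p14). Analyses used Python 3.11.15, numpy 2.4.6, pandas 2.3.3, scipy 1.17.1 and matplotlib 3.10.9.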

Additional observations from a re-analysis of the deposited data

Results flagged for a closer look

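In 74 tests of a single library standing apart in its group of 4, 10 values were picked out. The measure was the gap to the nearest library as a share of the group's range. Its cutoff gives about 1 in 20 by chance only for independent, normally distributed values. Small counts and percentiles of several sites in the same libraries are not such values, so the 10 are a description. In the T354M anti-GATA2 group, 4 of these came from replicate 2, the shortest list of the group, at 53.8 for ANK1 site 5, 41 for SPTB site 5, 51.8 for SPTB site 6 and 73.8 for SLC4A1 site 4 (percentile by -log10 q). HA-GATA2 anti-GATA2 replicate 1 had the highest share of member sites in its group, 0.345%, and the lowest percentile of TMCC2 site 2, 92.9. HA-GATA2 anti-HA replicate 4 had the lowest percentile of TMCC2 site 2, 79.4. Replicate 1 of the GATA2-low empty-vector anti-GATA2 group, the library with the wild-type genotype label, had the lowest percentile of EPB41 site 2, 75.6. WT replicate 1 had the lowest percentile of SPTB site 5, 90.6. T354M anti-HA replicate 1 held 2 member sites where the other 3 libraries of its group held 3.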

How the results depend on the processing

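Comparisons are named here by the group given first. Adjustment over every site with a peak left 0 member sites called in each of the 6 comparisons that had calls. The replicate block (exact sign flips over same-numbered libraries) also gave 0. With 4 pairs its exact p cannot reach 0.05, so that 0 was fixed in advance and says nothing about the calls. The numbers do not pair the libraries, since correlations of same-numbered deviations ran between -0.11 and 0.12. With equal lists the calls were 0 for GATA2-low empty vector against WT, 1 for HA-GATA2 against the empty vector (a lower site), 1 for T354M against HA-GATA2 with anti-GATA2 (a higher site) and 0 with anti-HA. The differences in member sites per library then were 0, -1.75, 1 and 0, and -0.75 for T354M against the empty vector. Thinned fragments gave 0 calls and a difference of -8 for GATA2-low empty vector against WT, a difference of 1.25 for T354M against the empty vector and 1 call for T354M against HA-GATA2 with anti-HA. For HA-GATA2 against the empty vector, thinning gave 2 calls, both higher, and a difference of 11. A -log10 q of at least 15 gave 6 calls for HA-GATA2 against the empty vector, 1 for T354M against HA-GATA2 with anti-HA, and 0 calls and a difference of 1.5 for T354M against the empty vector with anti-HA. It left the count for GATA2-low empty vector against WT at 3, with none of the same sites, and that for T354M against HA-GATA2 with anti-GATA2 at 2, with 1 site exchanged. Peaks trimmed to 100 bp around summits gave 1 call for GATA2-low empty vector against WT and 1 for T354M against HA-GATA2 with anti-HA. With anti-HA, the gene body alone gave 0 calls for T354M against HA-GATA2 and 3 for HA-GATA2 against the empty vector. The cause of these changes was not tested, except that equal lists and thinning remove peaks by construction.

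Leaving out 1 library moved the calls between 0 and 5 for GATA2-low empty vector against WT, 0 and 6 for HA-GATA2 against the empty vector, and 0 and 3 for T354M against HA-GATA2 with anti-GATA2. With anti-HA it moved them between 0 and 15 for T354M against HA-GATA2 and 0 and 18 for HA-GATA2 against the empty vector, while T354M against the empty vector stayed at 2. A complete split stays complete when 1 library is left out, so calls were lost through the adjustment alone. The differences in member sites per library lay between -13 and -10.3, 11.8 and 14.8, 4.5 and 7.5 (T354M against the empty vector) and -8.75 and -5.75 with anti-GATA2, and between -16.9 and -11.2, 14 and 19.7, and 2.67 and 3 with anti-HA. The rank test called 0 member sites under fold in place of -log10 q and under every omission. Its 0 under the replicate block was again fixed in advance, as 4 pairs cannot reach 0.05. Equal lists and thinning could not be run against the empty-vector anti-HA lists, which are too short. Depth is known only as a relative background, and 4 libraries a group cannot give p below 0.0286.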
